A study of Mus musculus with 12 samples.

Results

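Ccl3, Ccl4 and Ccl5, 3 chemokine ligands of the CC family, and Ccr1, the receptor that binds them, were followed across the cell classes of 6 mouse mammary tumours. These 4 genes were set by name, with no limit on a measured value, and were chosen with earlier results of these data known. They are 4 of the 18574 genes present in both sets of count tables. The tumours grew in the mammary fat pad of female BALB/c mice aged 9 to 11 weeks, from the parental 4T1 line, a mouse model of triple-negative breast cancer, or from 1 of 5 clones of that line, each begun from a single cell. The clones are called E, EM1, EM2, EM3 and M and as a set cover epithelial, intermediate and mesenchymal states; the labels do not give the state of each. No other treatment is named. Each of the 6 groups was 1 tumour, and each tumour gave 2 single-cell RNA libraries: a Total library of all cells and a CD45 library of leukocytes taken with magnetic beads against CD45. No group has a second tumour, so differences between clones are descriptions of single tumours, with no test and no replicate check.

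Ccl3 and Ccl4 (also called MIP-1alpha and MIP-1beta) are released within hours by activated granulocytes, macrophages and lymphocytes, and Ccl5 (RANTES) is a product of NK cells and of antigen-experienced CD8 T cells. Ccr1 is carried by neutrophils and monocytes and moves them toward these ligands. All are held to shape which leukocytes enter a tumour. Other CC receptors were analysed only as members of a list described with the comparison of libraries.

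The 3 ligands are small secreted proteins with a shared fold, marked by a pair of neighbouring cysteines. The stretch of coding sequence around the cysteine codons is shown because it shows how alike the ligands are. Whether the counted reads cover this stretch is not settled. The capitals mark the codons of the 2 neighbouring cysteines, the strand is that of the transcript, and each stretch runs from the end of exon 1 into exon 2:
Ccl3: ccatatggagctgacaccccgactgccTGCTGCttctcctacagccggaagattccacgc
Ccl4: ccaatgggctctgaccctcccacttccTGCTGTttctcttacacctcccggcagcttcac
Ccl5: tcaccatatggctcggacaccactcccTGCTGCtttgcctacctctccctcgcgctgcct

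The sequences come from the GENCODE M21 annotation of GRCm38 (mm10). All 3 ligand genes lie on chromosome 11 and have 3 exons: Ccl3 at chr11:83647844-83649355 on the minus strand, Ccl4 at chr11:83662584-83664683 on the plus strand and Ccl5 at chr11:83525778-83530518 on the minus strand. Ccl3 and Ccl4 are thus close neighbours on opposite strands. Ccr1 lies at chr9:123962124-123968692 on the minus strand, with 2 exons. The aligned coding sequences of Ccl3 and Ccl4 were identical at 192 of 270 bases (71.1%), those of Ccl3 and Ccl5 at 67.8% and those of Ccl4 and Ccl5 at 166 of 272 bases. The longest run of bases shared by the transcripts of any pair was 13 bases.

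The 12 libraries held 115612 cells, of which 2523 (2.18%) were called doublets and left out. Each UMI (unique molecular identifier) stands for 1 captured RNA molecule, and depth ranged from 28083101 to 122055131 UMIs per library, with a median of 1557 to 10042 UMIs per cell. The cell with fewest genes had 200 to 650 of them, depending on the library, so the deposited tables were filtered at different limits. Cell barcodes were compared by their first 16 bases: both libraries of a tumour shared 850 to 1732, the Clone E and Clone EM3 libraries 1400 to 1760 and the Clone EM1 and Clone EM2 libraries 818 to 1332, against 46 to 211 for other pairs. What the shared barcodes do to the values was not tested. Levels are CPM, the UMIs of a gene per 1000000 UMIs summed over the cells of a class, and their 95% intervals are exact Poisson intervals of counting error only. Where 6 values follow each other, they stand for Clones E, EM1, EM2, EM3 and M and then the parental tumour. UMI counts carry no correction for how well each gene is captured, so levels were compared between classes and tumours within a gene. The authors called the classes from the expression of the same cells, so differences between classes are given without a test. Markers of the class names were summed in the CD45 libraries. The level of 5 granulocyte genes was 135427 to 204548 CPM in granulocytes and 661 to 1662 CPM in macrophages, and that of 6 macrophage genes 31761 to 48609 CPM in macrophages and 2591 to 5319 CPM in granulocytes. Of the 4 NK genes listed, Klrb1c is in none of the CD45 tables used; the other 3 summed to 888 to 2175 CPM in NK cells. In T cells the 3 genes listed for CD8 T cells, Cd3e, Cd8a and Cd8b1, summed to 1222 to 2422 CPM. Cd3e, a gene of all T cells, alone had 977 to 1437 CPM there, so the sum is not particular to CD8 cells. In DC 5 genes of DC summed to 8516 to 12026 CPM, beside 4702 to 21434 CPM of the macrophage genes, and in B cells 3 genes of B cells to 2040 to 5329 CPM, beside 2372 to 5643 CPM of the macrophage genes.

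Ccl3 was highest in granulocytes in all 6 CD45 libraries among granulocytes, macrophages, other myeloid cells, dendritic cells (DC), T, NK and B cells. In the T/Myeloid Hybrid class, left out here, Ccl3 was below granulocytes in 4 of 5 tumours and above them in Clone M (3655 CPM). In granulocytes of the CD45 libraries it reached 2906, 1634, 1803, 1476, 2341 and 2290 CPM. In macrophages of the same libraries it had 239, 208, 150.0, 194, 115 and 192 CPM. The ranges did not meet: granulocytes were 7.60 to 20.3 times above macrophages (median 11.96). Clone E was highest in both classes, whereas the lowest tumour was EM3 in granulocytes and M in macrophages. In granulocytes the intervals of Clone M and the parental tumour overlapped and those of all other neighbours in the order did not. The Total libraries gave 1047 to 2272 CPM in granulocytes and 122 to 262 CPM in macrophages, a ratio of 6.35 to 12.5.

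Beside these classes, Ccl3 was low in DC (67.1 to 171 CPM in the CD45 libraries, median 98.4) and in T cells (25.8 to 78.2, median 52.0). The intervals of neighbouring tumours overlapped throughout the DC order and, for T cells, everywhere except between EM3 and EM2. NK cells had 10.3 CPM in Clone M and 85.8 to 266 CPM in the other 5 tumours, from 38 to 132 cells per tumour, and all neighbouring intervals overlapped. Tumour cells of the Total libraries had 2.08 to 29.4 CPM, with Clone E and Clone M above the other 4. In Clone E, however, B, endothelial and fibroblast cells also held 399, 177 and 186 CPM of Ccl3. The B cell level came from few cells, since 3 of 301 held 84.2% of its 317 UMIs and 1 cell held 239. Of the fibroblast UMIs, 1 of 135 cells held 42.3%. B cells of the CD45 libraries had 60.3 to 112 CPM in 5 tumours and 844 CPM in Clone M, from 42 cells.

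**Figure D1:**
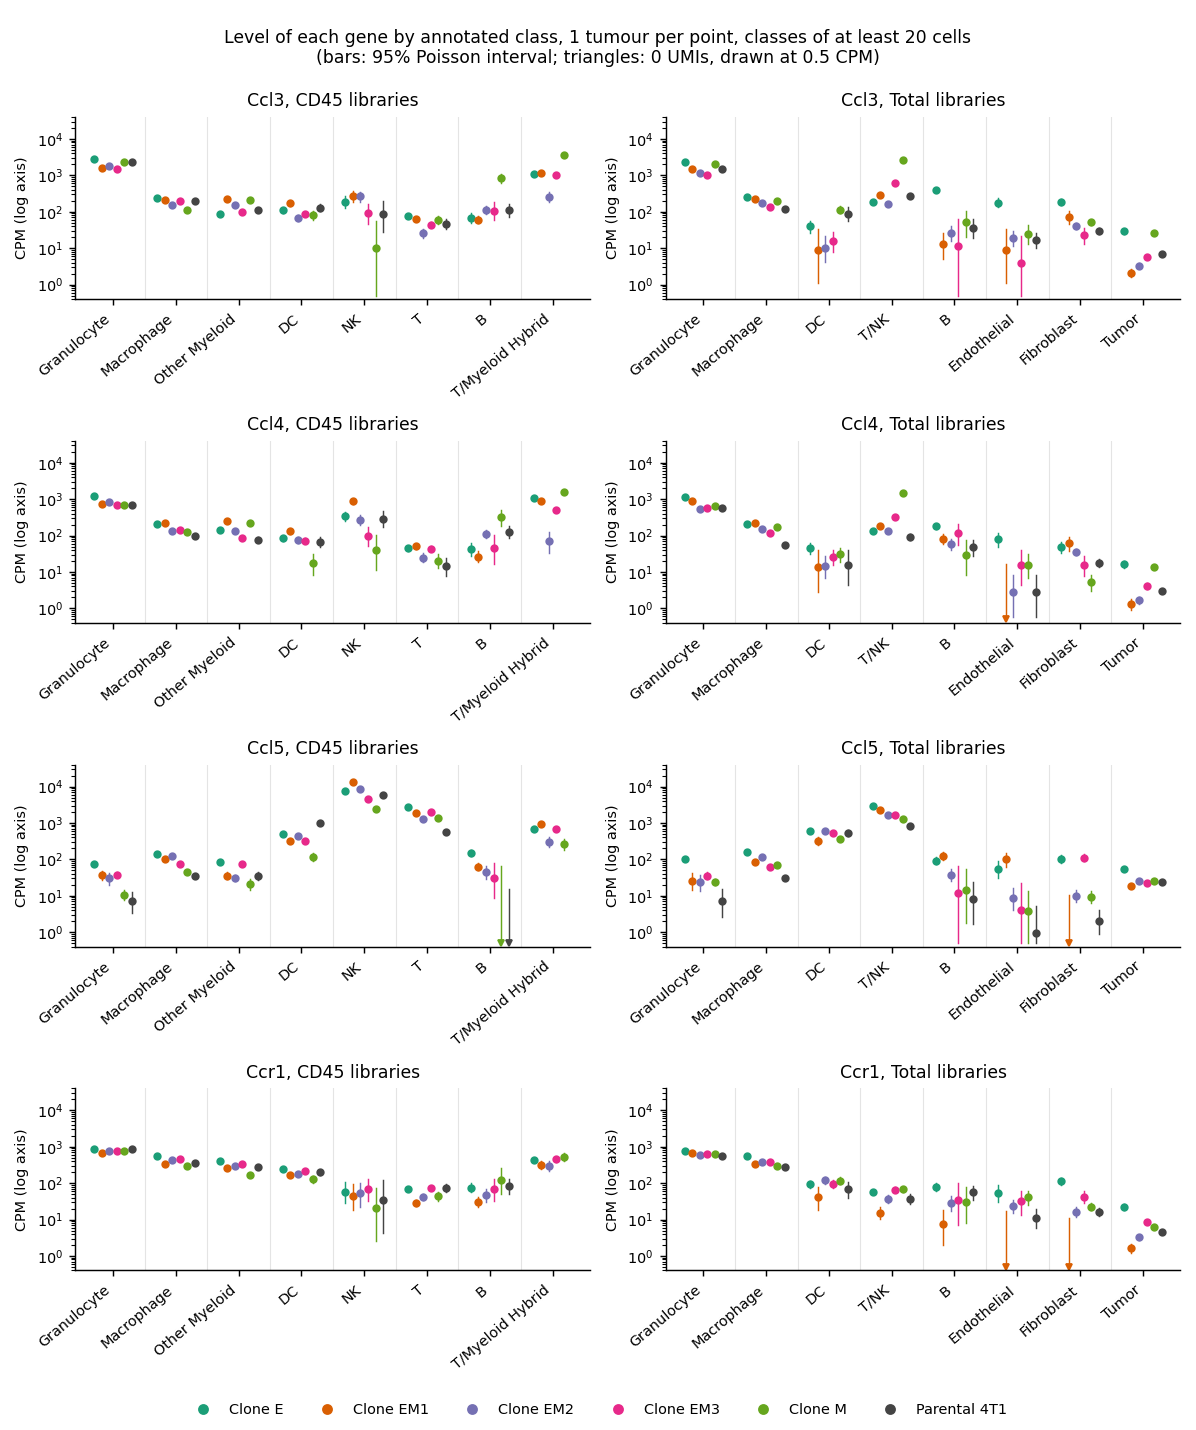
Level of Ccl3, Ccl4, Ccl5 and Ccr1 in each annotated class, in CPM on a log axis, with the CD45 libraries on the left and the Total libraries on the right; each point is 1 tumour, bars are 95% Poisson intervals and triangles stand for 0 UMIs. Ccl3 sits between 1476 and 2906 CPM in granulocytes of the CD45 libraries and between 115 and 239 CPM in macrophages, while Ccl5 peaks in NK cells at 2438 to 13545 CPM.

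The share of positive cells was also highest in granulocytes. After every cell had been thinned to 500 UMIs, 30.4% to 45.6% of granulocytes (median 35.7%) and 5.14% to 7.68% of macrophages (median 6.48%) of the CD45 libraries held a Ccl3 UMI, and up to 8.82% of NK cells (median 6.67%). The share was at most 3.75% in T cells. It was 0.105% to 2.45% in tumour cells of the Total libraries, a class not known for Ccl3; whether those UMIs are free RNA was not tested. Median depths before thinning were 690 to 1220 UMIs per cell in granulocytes of the CD45 libraries and 6509 to 15276 in tumour cells. Thinning left out 1155 of 13455 granulocytes, which held under 500 UMIs, and 3 of 24024 macrophages. Without thinning the shares were 36.4% to 58.0% in granulocytes and 19.5% to 27.8% in macrophages.

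Within a class Ccl3 was unevenly spread. The 1% of granulocytes with most Ccl3 UMIs held 12.9% to 19.2% of the class's Ccl3 in the CD45 libraries, and the top 1% of macrophages held 27.5% to 34.8%. Those 238 macrophages, each with at least 15 Ccl3 UMIs, had 18.4 to 39.1 times the Ccl4 level of the other macrophages in all 6 tumours. Tnf, a cytokine of early inflammation, was 2.497 to 15.0 times as high in them and Il1b 1.17 to 3.10 times, whereas the macrophage receptor gene Csf1r lay between 0.604 and 1.08 times. Granulocyte genes moved with the same macrophages: S100a8 had a median ratio of 1.83 (higher in 5 of 6 tumours), S100a9 1.68 (4 of 6) and Csf3r 1.21 (4 of 6), and their part was not tested. The 131 granulocytes of the top 1% had 4.59 to 7.70 times the Ccl4 level, 4.55 to 6.06 times the Cxcl2 level and 1.147 to 9.34 times the Tnf level of the other granulocytes. S100a8, S100a9 and Csf3r, genes of mature granulocytes, were lower in them in 6 of 6 tumours, at median ratios of 0.545, 0.630 and 0.582. These cells were chosen by their Ccl3, which is itself part of each cell's total, so the ratios are descriptions.

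The number of transcripts each class held also depended on its cells. Granulocytes held 28.4% to 75.7% of the Ccl3 UMIs of the CD45 libraries (median 41.0%) while making up 11.9% to 50.5% of the cells, and macrophages held 17.0% to 58.2% (median 51.5%) as 33.8% to 51.4% of the cells. Clone M stood apart with 75.7% in granulocytes. When cells of any class with under 650 genes were left out, the median level of Ccl3 in granulocytes fell to 946 CPM from 2046 CPM. The median share of the UMIs held by granulocytes fell to 17.2%. The most strictly filtered library already met this limit.

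Like Ccl3, Ccl4 was higher in granulocytes than in macrophages in 6 of 6 CD45 libraries, with a smaller gap. Its order of classes differed from that of Ccl3 in NK cells. In the T/Myeloid Hybrid class of the CD45 libraries Ccl4 had 69.7 to 1582 CPM over 5 tumours, above granulocytes in 2 of them. In granulocytes of the CD45 libraries it had 1199, 743, 829, 687, 677 and 675 CPM. Clone E stood above the other 5, whose neighbouring intervals all overlapped. In macrophages the values were 204, 225, 129.9, 142, 126 and 98.8 CPM, so that granulocytes were 3.30 to 6.83 times higher. NK cells held 877 CPM in EM1, where their interval (735 to 1038) overlapped that of granulocytes (697 to 790), and 41.3 to 338 CPM in the other 5 tumours. By median, NK cells (281 CPM) ranked above macrophages (136 CPM). They were higher than macrophages in Clones E, EM1 and EM2 and the parental tumour, and lower in EM3 and M. T cells had 14.2 to 50.2 CPM and tumour cells of the Total libraries 1.30 to 16.1 CPM.

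Granulocytes and macrophages with Ccl3 more often held Ccl4. Among thinned cells of the CD45 libraries, 20.8% to 36.3% of macrophages with a Ccl3 UMI also had a Ccl4 UMI, against 2.18% to 4.67% of macrophages without one, in 6 of 6 tumours. In granulocytes the shares were 25.6% to 37.6% and 10.3% to 15.0%, again in 6 of 6. The difference was in the same direction in all 6 Total libraries for both classes. In T cells of the CD45 libraries the share was higher in 3 of 5 libraries with enough cells, and not in EM2 or EM3. Those T cell shares rest on 0 to 4 cells with both genes per library, so their directions are uncertain. Over 47 pairs of class and CD45 library, Ccl3 and Ccl4 correlated with r = 0.89 on log2(CPM + 10), as a description across points that share libraries and depth. Of 8123 genes compared, Acod1, which makes itaconate in activated myeloid cells, was most like Ccl3 (r = 0.90), followed by Ccl4, Fpr2 (0.86), Sgms2 (0.85) and Hp (0.84). Ccl4 was most like Ccl3, then Acod1 (0.78), Litaf (0.73), Grina (0.72) and Ptpn12 (0.72).

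**Figure D2:**
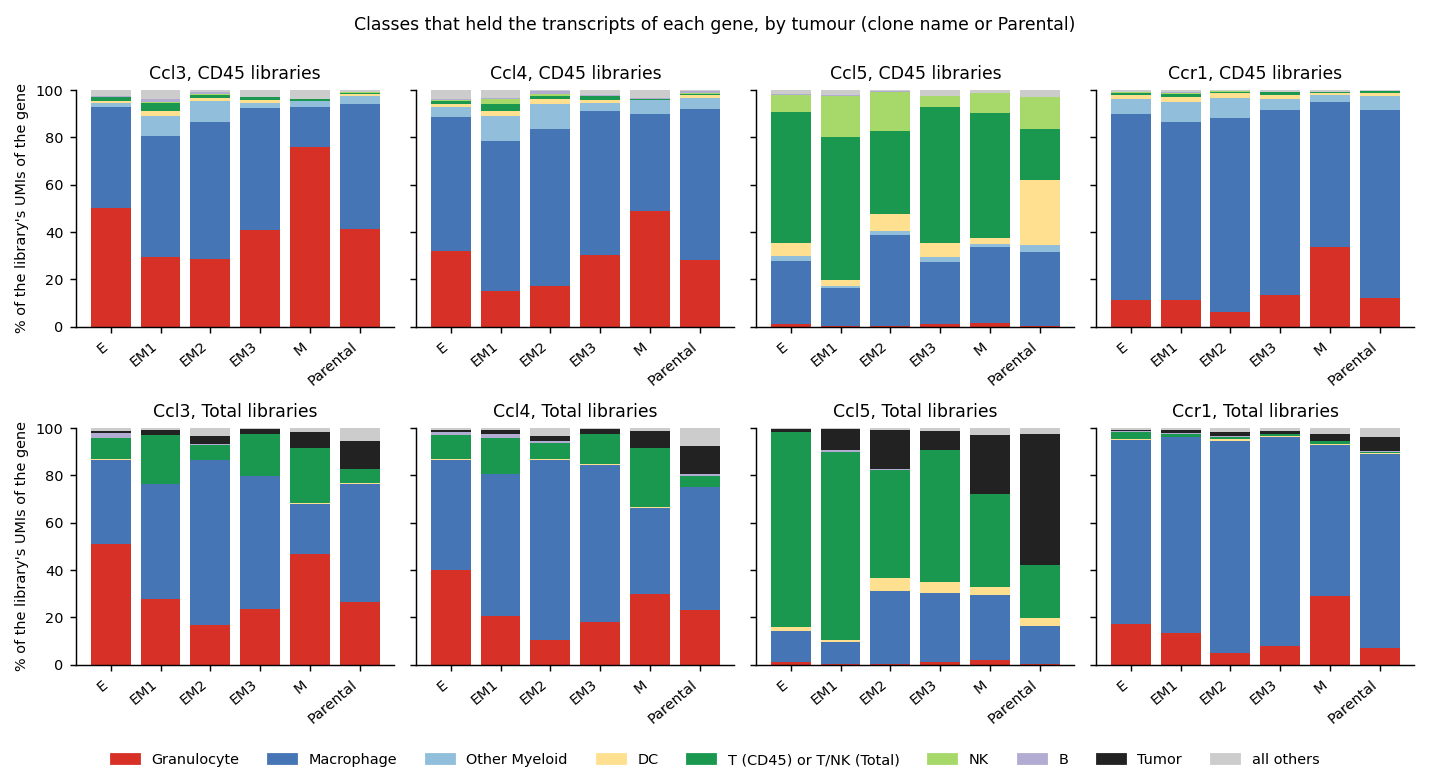
Percent of each library's UMIs of Ccl3, Ccl4, Ccl5 and Ccr1 held by each class, stacked to 100%, with 1 bar per tumour, CD45 libraries above and Total libraries below. Granulocytes and macrophages hold most Ccl3 and Ccl4, T and NK cells most Ccl5 in the CD45 libraries of 5 of the 6 tumours, and macrophages 61.3% to 82.1% of Ccr1 in the CD45 libraries.

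A T/NK class in the Total libraries also held Ccl3, from 169 CPM in EM2 and 187 in Clone E to 633 in EM3 and 2636 in Clone M, whose intervals lay above all other tumours. Much of it sat in few cells: the top 1% of the class held 39.2% of its Ccl3 UMIs in Clone M and 96.2% in EM1 (median 87.1%). In these libraries 45 of 8815 T/NK cells had at least 2 UMIs summed over Mcpt8, Ms4a2, Fcer1a, Cpa3 and Mcpt4, genes of basophils and mast cells, and 31 of the 45 were in Clone M. They held 6016 to 64039 CPM of Ccl3 (median 32820) and 12701 to 29557 CPM of Ccl4 (median 17444). The T/NK cells without these genes held 117 to 1492 CPM of Ccl3 (median 211).

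The 45 cells, 0.0691% to 2.88% of the class in each tumour, thus carried 3.08% to 47.0% of its Ccl3. In them Il6, a cytokine, had 5348 to 30168 CPM, against 26.9 to 428 CPM in the remaining cells. Their Ccl5 was 0 in 4 tumours, 37.9 CPM in Clone M and 1071 CPM in EM1, and the T cell gene Cd3e lay between 0 and 937 CPM. In Clone M the cells without the 5 genes still held 1492 CPM of Ccl3 and 57.3 CPM of Gata2, a regulator of mast cells and basophils, against 0.992 to 14.0 CPM of Gata2 in the other 5 tumours. These genes were picked after the levels had been seen, and what the cells are was not tested. No cell annotated T or NK in the CD45 libraries met the same limit. Of the cells annotated T/Myeloid Hybrid there, 25 met it and 258 did not. The Total cells held 937 to 5762 CPM of Mcpt8, a basophil protease, and none of Mcpt4, a mast cell protease. The hybrid cells held 277 to 26125 CPM of Mcpt4 and no Mcpt8 in 3 tumours. Clone M was an exception, since its 3 such hybrid cells held 2219 CPM of Mcpt8, more than their Mcpt4, and had the highest Ccl3. Hybrid cells that met the limit had more Ccl3 than the other hybrid cells in 5 of 6 tumours, from 2949 to 24958 CPM, but in EM2 had 64.8 CPM against 281 CPM.

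**Figure D3:**
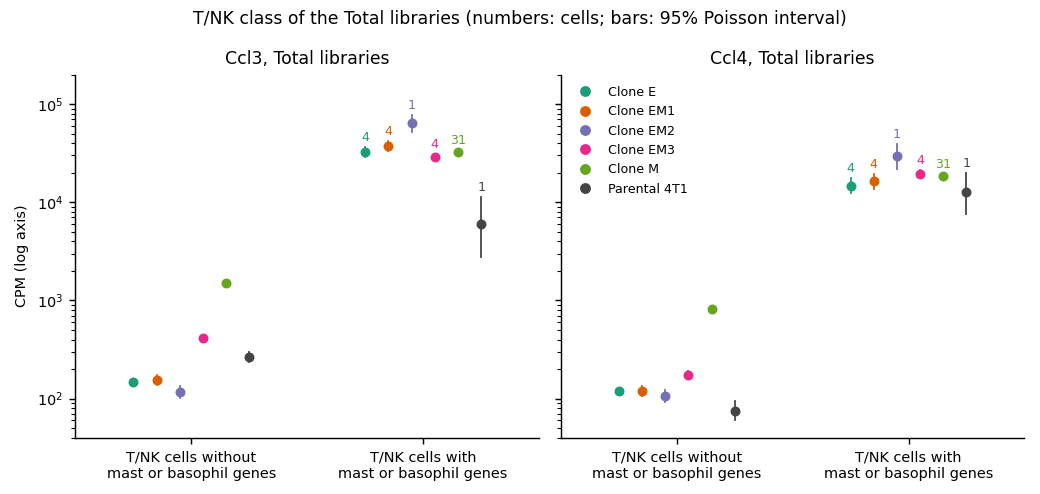
Level of Ccl3 and Ccl4 in T/NK cells of the 6 Total libraries, in CPM on a log axis, in cells without and with at least 2 UMIs of 5 basophil and mast cell genes; numbers give the cells in the smaller set and bars are 95% Poisson intervals. The smaller set lies at 6016 to 64039 CPM of Ccl3, above the remaining cells of every tumour.

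The finer annotation of the CD45 libraries splits the hybrid class in 2. T/Myeloid Hybrid2, a set of 14 to 29 cells per tumour, had 1591, 4810, 611, 4274, 17910 and 1756 CPM of Ccl3, highest in Clone M; Clone M and the parental tumour had only 14 such cells each. Over the 4 tumours with at least 20 cells, it carried granulocyte genes at a summed level of 34087 to 94043 CPM. Side by side with them it carried the genes listed for CD8 T cells, Cd3e among them (926 to 2074 CPM), and mast cell genes (1276 to 12056 CPM). Of the 355 cells given this name, 225 (63.4%) had been called doublets and left out, against 2.18% of all cells, so these levels rest on 130 cells. Whether its Ccl3 comes from 1 cell type or from mixed droplets was not tested.

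By median over the CD45 libraries, Ccl5 was highest in NK cells and next in T cells. T cells held 21.2% to 60.5% of its UMIs there (median 54.1%) and NK cells 4.89% to 17.2%. Macrophages held 15.8% to 38.6% (median 28.8%) and DC 2.40% to 27.6%. In NK cells of the CD45 libraries Ccl5 reached 7480, 13545, 8816, 4534, 2438 and 5749 CPM. The whole T class had 2741, 1903, 1265, 2004, 1365 and 565 CPM. NK cells were 1.79 to 10.2 times above T cells, beyond the intervals of both in 6 of 6 tumours. The parental tumour was lowest in T cells and Clone M lowest in NK cells. The finer annotation moved 331 cells from other myeloid to NK, and its NK class had 1491 CPM in the parental tumour to 7003 CPM in EM1.

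Within T cells Ccl5 lay in CD8 subsets. Gzmb+ Cd8+ T cells, named for the cytotoxic protease granzyme B, had 5510, 5672, 5926, 1799 and 4097 CPM in the 5 clones; the parental tumour had only 8 such cells. Lef1+ Cd8+ T cells, named for a factor of less differentiated T cells, had 5986, 5401, 2845, 5376, 4077 and 4941 CPM. Neither subset was above the other throughout: Gzmb+ cells were higher in 3 of 5 tumours, beyond the intervals in 1, and lower beyond the intervals in 2. Lef1+ Cd8+ cells lay above the NK cells of the same annotation in 4 of 6 tumours and below them in 2, each beyond the intervals. That NK class includes the cells moved from other myeloid. Against the NK class of the broader annotation (2438 to 13545 CPM), Lef1+ Cd8+ cells were higher only in EM3 and M. Clone EM3 had the lowest Ccl5 of Gzmb+ cells while its Lef1+ cells were close to those of EM1.

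The CD4 subsets lay far lower. Cd44+ Cd4+ T cells had 214 to 406 CPM and Foxp3+ Cd4+ T cells, the regulatory subset, 272 to 622 CPM. Lef1+ Cd8+ cells were 10.03 to 24.02 times above Cd44+ Cd4+ cells. Cd44- Cd4+ T cells had 106 to 774 CPM in 5 tumours and 3368 CPM in Clone M, from only 43 cells there. After thinning, 42.9% to 82.2% of NK cells and 5.94% to 33.0% of all T cells held a Ccl5 UMI, against 0.383% to 3.32% of granulocytes.

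**Figure D4:**
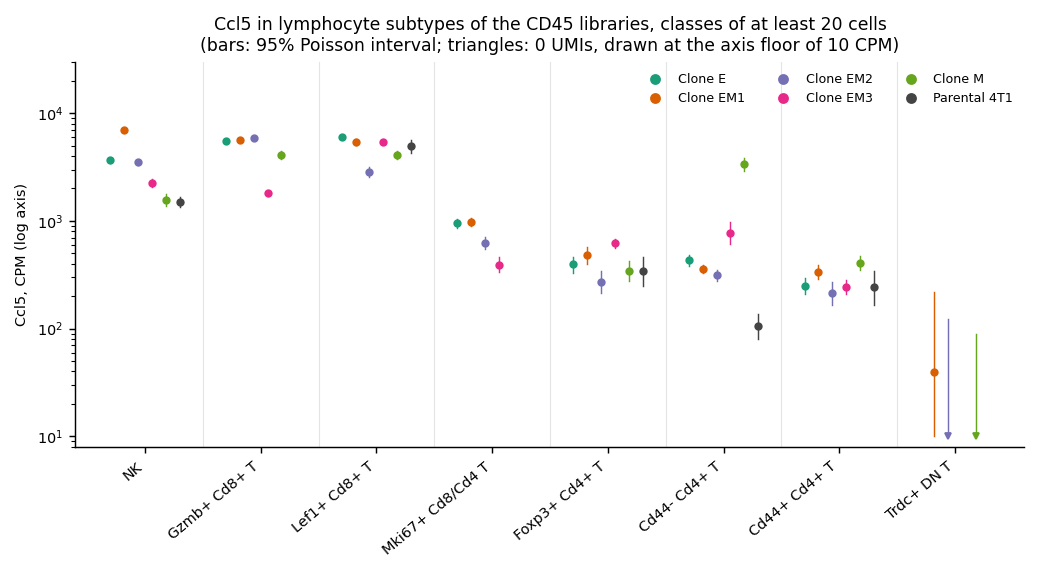
Ccl5 level in NK and T cell subtypes of the CD45 libraries, in CPM on a log axis; each point is 1 tumour with at least 20 cells of the subtype, bars are 95% Poisson intervals and triangles stand for 0 UMIs. The Gzmb+ and Lef1+ Cd8+ subsets lie between 1799 and 5986 CPM, and the Foxp3+ and Cd44+ Cd4+ subsets between 214 and 622 CPM.

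DC of the CD45 libraries held Ccl5 at 117 CPM in Clone M to 995 CPM in the parental tumour (median 382). They were above macrophages of the same tumour 2.57 to 28.9 times. In the Total libraries DC had 325 CPM in EM1 to 609 CPM in EM2, with Clone M at 354 and the parental tumour at 532. Macrophages of the CD45 libraries had 139, 104, 128, 76.2, 45.3 and 34.4 CPM, with no neighbouring intervals overlapping. Granulocytes had 7.003 to 72.6 CPM, with Clone E highest and the parental tumour lowest in both myeloid classes. The top 1% of macrophages held 45.1% to 87.7% of the Ccl5 UMIs of that class, a more uneven spread than for Ccl3.

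Tumour cells of the Total libraries had 19.1 to 55.9 CPM of Ccl5 (median 24.7), with Clone E highest and the other 5 between 19.1 and 26.1. The 1% of tumour cells with most Ccl5 held 44.7% to 88.8% of its UMIs (median 76.5%), so that few cells carried the level. They held 1.12% of the library's Ccl5 UMIs in Clone E, where they were 7.17% of the cells, and 55.3% in the parental tumour, where they were 56.2% of the cells. After thinning, 0.407% to 2.32% of tumour cells held a Ccl5 UMI, against 0% to 5.55% of granulocytes, and tumour cells were above granulocytes in CPM in 3 of 6 tumours. In the parental tumour the tumour cells had 24.5 CPM (23.4 to 25.5), while granulocytes had 7.001 (2.57 to 15.2), fibroblasts 2.02 (0.872 to 3.98) and endothelial cells 0.924 (0.0234 to 5.15). The order was the other way in fibroblasts of Clone E, with 103 CPM (80.7 to 130), and of EM3, with 111 CPM (87.6 to 138), where the tumour cells had 55.9 and 22.1 CPM. In EM1 endothelial cells had 101 CPM (63.4 to 153) and B cells 122 CPM (94.1 to 155), against 19.1 CPM in tumour cells. Ccl5 UMIs per UMI of Nkg7, a gene of NK and cytotoxic T cells, were 3.78 to 57.1 in tumour cells and 1.40 to 3.12 in T/NK cells, higher in tumour cells in 6 of 6 libraries, and 2.03 to 8.24 in granulocytes and 7.38 to 60.7 in macrophages. Per UMI of the T cell gene Cd3e the ratio was higher in tumour cells in 4 of 6 libraries, lower in Clone E (1.98 against 2.15) and Clone M (1.36 against 1.62). Whether tumour cells made these transcripts was not tested.

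Over the 47 pairs of class and CD45 library, Ccl5 was most like Il12rb2 (r = 0.95), Klrc1 (0.92), Osbpl3 (0.92), Ifngr1 (0.92) and Klrk1 (0.92). Its correlations with the other members were -0.34 with Ccl3, -0.14 with Ccl4 and -0.55 with Ccr1.

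Ccr1, the receptor, was highest in granulocytes and next in macrophages, by median over the CD45 libraries and leaving out the T/Myeloid Hybrid class (median 432 CPM over 5 tumours). Granulocytes of the CD45 libraries had 854, 692, 783, 769, 750 and 847 CPM, and when they were ranked the intervals of all neighbours overlapped. Macrophages had 568, 343, 431, 465, 298 and 365 CPM, with no neighbouring intervals overlapping, Clone E highest and Clone M lowest. Other myeloid cells followed with 168 to 401 CPM (median 293) and DC with 127 to 238 CPM (median 191). Both macrophages and other myeloid cells had Clone E highest and Clone M lowest.

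Lymphocytes were low in Ccr1, at 28.5 to 75.2 CPM in T cells, 20.7 to 68.8 CPM in NK cells and 30.9 to 123 CPM in B cells. Macrophages were 4.86 to 12.04 times above T cells. Tumour cells of the Total libraries had 1.63 CPM in EM1 to 22.1 CPM in Clone E. After thinning, 30.9% to 36.2% of granulocytes, 14.5% to 25.2% of macrophages and 1.499% to 4.22% of T cells of the CD45 libraries held a Ccr1 UMI, and 0.105% to 1.68% of tumour cells of the Total libraries.

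Macrophages held most of the receptor's transcripts: 61.3% to 82.1% (median 78.3%) in the CD45 libraries and 63.7% to 89.5% in the Total libraries. Granulocytes held 6.06% to 33.9%, with Clone M highest. Unlike Ccl3, Ccr1 was spread over many cells, since the top 1% of macrophages held 4.04% to 5.28% of its UMIs. Ccr1 was most like Cxcl2 (r = 0.97), Arg2 (0.97), Cd14 (0.97), Cebpb (0.97) and Prdx5 (0.96) over the 47 pairs of class and library.

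Spread between tumours was set against that of all genes in the class. A range of at least 2-fold on CPM + 10 from the lowest to the highest CD45 library was reached by 10.7% of genes in granulocytes and by 1 of the 4 members, Ccl5. In macrophages 6.79% of genes and 2 members, Ccl4 and Ccl5, reached it, with Ccl3 just below at a log2 range of 0.99. With cells of at least 650 genes, Ccl3 (log2 range 1.44) and Ccl4 (1.09) reached it in granulocytes too, where 43.8% of all genes then did and the median log2 range over all genes was 0.93, and the lowest Ccl3 there was in EM1, not EM3. The log2 range of Ccr1 was 0.30 in granulocytes and 0.91 in macrophages, against medians of 0.59 and 0.40 over all genes of each class. In T cells 12.2% of genes and all 4 members reached 2-fold, in DC 15.7% and 3 members, in other myeloid cells 9.11% and all 4. In NK cells 69.2% of genes and all 4 members reached it, with a median log2 range of 1.33 over all genes. The log2 ranges were 3.76 for Ccl3, 4.11 for Ccl4, 2.47 for Ccl5 and 1.36 for Ccr1. All 4 were lowest in Clone M, whose 49 NK cells held 1 UMI of Ccl3, 4 of Ccl4 and 2 of Ccr1. The sizes of those ranges are therefore uncertain. In B cells 62.7% of genes and all 4 members reached it, with log2 ranges of 1.70 to 4.005 and a median of 1.18 over all genes. The largest was that of Ccl5, whose lowest level was 0 CPM.

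Other genes of the pathway were taken from lists chosen with earlier results of these data known. The 4 ligands that share receptors with the members were higher in macrophages than in granulocytes of the same CD45 library in 6 of 6 tumours each, though the ranges of Ccl6 and Ccl8 over tumours overlapped. Ccl6 had 531 to 1324 CPM in macrophages and 257 to 719 CPM in granulocytes of the CD45 libraries, and Ccl9 555 to 1177 CPM and 65.1 to 215 CPM. Ccl7 had 101 to 234 CPM in macrophages and 23.4 to 46.8 CPM in granulocytes, and Ccl8 38.4 to 417 CPM and at most 45.2 CPM. Ccrl2, an atypical receptor that binds chemerin, had 765 to 1634 CPM in granulocytes.

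Both libraries of each tumour allowed 1 comparison with replicates, CD45 against Total within a class over 6 tumours. It asks whether the measured level of a gene in a class of the same name differs between both kinds of library. Counts summed per class and library were tested with edgeR's quasi-likelihood test with the tumour as a block and Benjamini-Hochberg adjustment over all genes. Nothing in the labels separates enrichment from any other difference in handling of the 2 libraries, so these cannot be told apart. The 2 annotations differ as well, since the CD45 libraries have an other myeloid class (2549 cells, doublets included) that the Total libraries lack. A class of the same name may therefore hold different cells, which was not tested.

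In granulocytes Ccl3 was higher in the CD45 library in 6 of 6 tumours, from means of 1583 CPM in Total to 2075 CPM in CD45 (log2 change 0.70, SE 0.093, edgeR adjusted p = 4.7e-06). Ccr1 rose likewise in 6 of 6 tumours, from 639 to 783 CPM (0.58, SE 0.094, edgeR adjusted p = 3.4e-05). Ccl4 rose in 5 of 6, all except EM1, from 729.9 to 801 CPM (0.44, SE 0.10, edgeR adjusted p = 0.0010). Ccl5, at 35.9 and 32.5 CPM, gave a log2 change of -0.03 (SE 0.17, edgeR adjusted p = 0.90). So 3 of 4 members passed the test in a class where 56.1% of 8288 genes did, 26.9% higher and 29.2% lower in CD45. On plain CPM the median gene of granulocytes shifted by -0.18 (log2), with S100a9 rising from 79748 to 92533 CPM. Relative to that median, Ccl3 changed by 0.58, Ccr1 by 0.47, Ccl4 by 0.33 and Ccl5 by 0.11. With cells of at least 650 genes, the calls of Ccl3 (log2 change 0.17, edgeR adjusted p = 0.35) and Ccl4 (0.28, edgeR adjusted p = 0.18) were lost, and that of Ccr1 was kept (0.39, edgeR adjusted p = 0.011). The macrophage genes Apoe (720 to 2693 CPM in Total, 1314 to 3342 in CD45) and C1qa (166 to 721 and 361 to 896 CPM) were also higher in granulocytes of the CD45 library in 6 of 6 tumours, and the 6 macrophage markers summed to 1433 to 4362 CPM in Total and 2591 to 5319 CPM in CD45, with none at 0. Their part in the changes was not tested. In the exact sign-flip permutation test Ccl4 gave p = 0.28, while Ccl3 and Ccr1 gave 0.031, the smallest p that 6 tumours allow.

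In macrophages 1 member passed, in a class where 40.9% of 12199 genes did, 21.9% higher and 19% lower in CD45. Ccr1 rose from a mean of 376 to 412 CPM (log2 change 0.27, SE 0.063, edgeR adjusted p = 0.0063). On plain CPM it was higher in 4 of 6 tumours, and the exact sign-flip test gave p = 0.22. Relative to the median shift of all genes (-0.044 on plain CPM), it was higher in 6 of 6. Without the tumour as a replicate block the edgeR adjusted p was 0.57. Ccl3 (185 and 183 CPM, edgeR adjusted p = 0.54), Ccl4 (154.0 and 154 CPM, 0.24) and Ccl5 (86.6 and 87.6 CPM, 0.27) did not pass in the edgeR fit, with log2 changes of 0.13, 0.20 and 0.15; without Clone M Ccl5 passed (0.29, edgeR adjusted p = 0.0083). The difference between macrophages and granulocytes was tested itself, as an interaction: it was -0.65 for Ccl3 (SE 0.19, edgeR adjusted p = 0.012) and -0.39 for Ccr1 (SE 0.13, edgeR adjusted p = 0.018), where 42% of 11514 genes passed, 24.8% above and 17.3% below 0. It was -0.32 for Ccl4 (edgeR adjusted p = 0.16) and 0.16 for Ccl5 (0.60), which did not pass, though Ccl4 did without the parental tumour (-0.43, edgeR adjusted p = 0.030). The Ccl3 difference did not pass without Clone EM2 (edgeR adjusted p = 0.067) or M (0.050), nor that of Ccr1 without EM1 (0.066), EM2 (0.065) or M (0.094). With cells of at least 650 genes, neither passed: the difference was -0.13 for Ccl3 (SE 0.22, edgeR adjusted p = 0.68) and -0.21 for Ccr1 (SE 0.13, edgeR adjusted p = 0.22).

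In DC, 3 members passed where 10% of 7208 genes did, 6.6% higher and 3.43% lower in CD45. Ccr1 rose from 89.2 to 189 CPM (log2 change 1.01, SE 0.17, edgeR adjusted p = 0.0012), in 6 of 6 tumours. Ccl4 rose from 24.3 to 74.3 CPM (1.36, SE 0.29, edgeR adjusted p = 0.0074) and Ccl3 from 46.0 to 107 CPM (1.29, SE 0.34, edgeR adjusted p = 0.026), both in 5 of 6 tumours, all except M. DC of Clone M had 80.1 CPM of Ccl3 and 17.4 of Ccl4 in CD45, against 114 and 30.2 CPM in Total. With doublets kept, those CD45 values were 154 and 56.3 CPM. Ccl5 went from 488 to 449 CPM (-0.35, edgeR adjusted p = 0.35). The macrophage genes moved with this class: Apoe had 202 to 2088 CPM in DC of the Total libraries and 3332 to 16386 CPM in DC of the CD45 libraries, and C1qa 59.6 to 474 and 601 to 3076 CPM, both higher in 6 of 6 tumours. The sum of the 6 macrophage markers in DC was 600.3 to 3188 CPM in Total and 4702 to 21434 CPM in CD45, and none of the 6 was at 0 in any library. The part of these genes in the change was not tested. The Ccl3 call in DC was lost without Clone E (edgeR adjusted p = 0.078), EM2 (0.075) or EM3 (0.11), and without the parental tumour Ccl5 passed (-0.59, edgeR adjusted p = 0.043). In the exact sign-flip permutation test Ccl3 and Ccl4 gave p = 0.0625 in DC.

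In T and NK cells, pooled to match the Total annotation but without the T/Myeloid Hybrid class that the Total annotation does not have, Ccl3 fell in 6 of 6 tumours from a mean of 699 to 57.6 CPM (log2 change -2.76, SE 0.44, edgeR adjusted p = 0.00080). Ccl4 fell in 6 of 6, from 387 to 46.4 CPM (-2.25, SE 0.45, edgeR adjusted p = 0.0033). Ccl5 was 1774 and 1912 CPM, higher in CD45 in 6 of 6 tumours but not past the threshold (0.14, SE 0.054, edgeR adjusted p = 0.085), and Ccr1 was 47.0 and 54.6 CPM (0.24, edgeR adjusted p = 0.28; without Clone M 0.39 and 0.039). Both calls stand where 23.9% of 10173 genes passed, 11% higher and 13% lower in CD45. The Total means rest in large part on Clone M, which had 2636 CPM of Ccl3 and 1458 of Ccl4, while the other 5 had 169 to 633 and 93.4 to 326 CPM. Without Clone M, Ccl3 went from a mean of 311 to 58.3 CPM (-2.24, SE 0.27, edgeR adjusted p = 9.1e-05) and Ccl4 from 173 to 51.3 CPM (-1.69, SE 0.20, edgeR adjusted p = 8.4e-05). T and NK cells with the 5 basophil and mast cell genes were then left out, which removed cells only from Total, since no T or NK cell of CD45 met the limit. In that fit Ccl3 changed by -2.18 (SE 0.39, edgeR adjusted p = 0.0016) and Ccl4 by -1.71 (SE 0.38, edgeR adjusted p = 0.0061). The class definition bears on these values. With the hybrid cells added to the CD45 side, Ccl3 had a mean of 175 CPM (-1.45, SE 0.27, edgeR adjusted p = 0.0027) and Ccl4 one of 108 CPM (-1.24, SE 0.34, edgeR adjusted p = 0.023), lower than in Total in 5 of 6 tumours each. Clone E was the exception, with 191 CPM of Ccl3 in CD45 and 187 in Total, and 162 and 136 CPM of Ccl4. With them Ccr1 passed (0.90, SE 0.12, edgeR adjusted p = 0.00019), at a mean of 84.1 CPM. Apoe and C1qa were higher in T and NK cells of the CD45 library in 6 of 6 tumours, and their part was not tested.

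**Figure D5:**
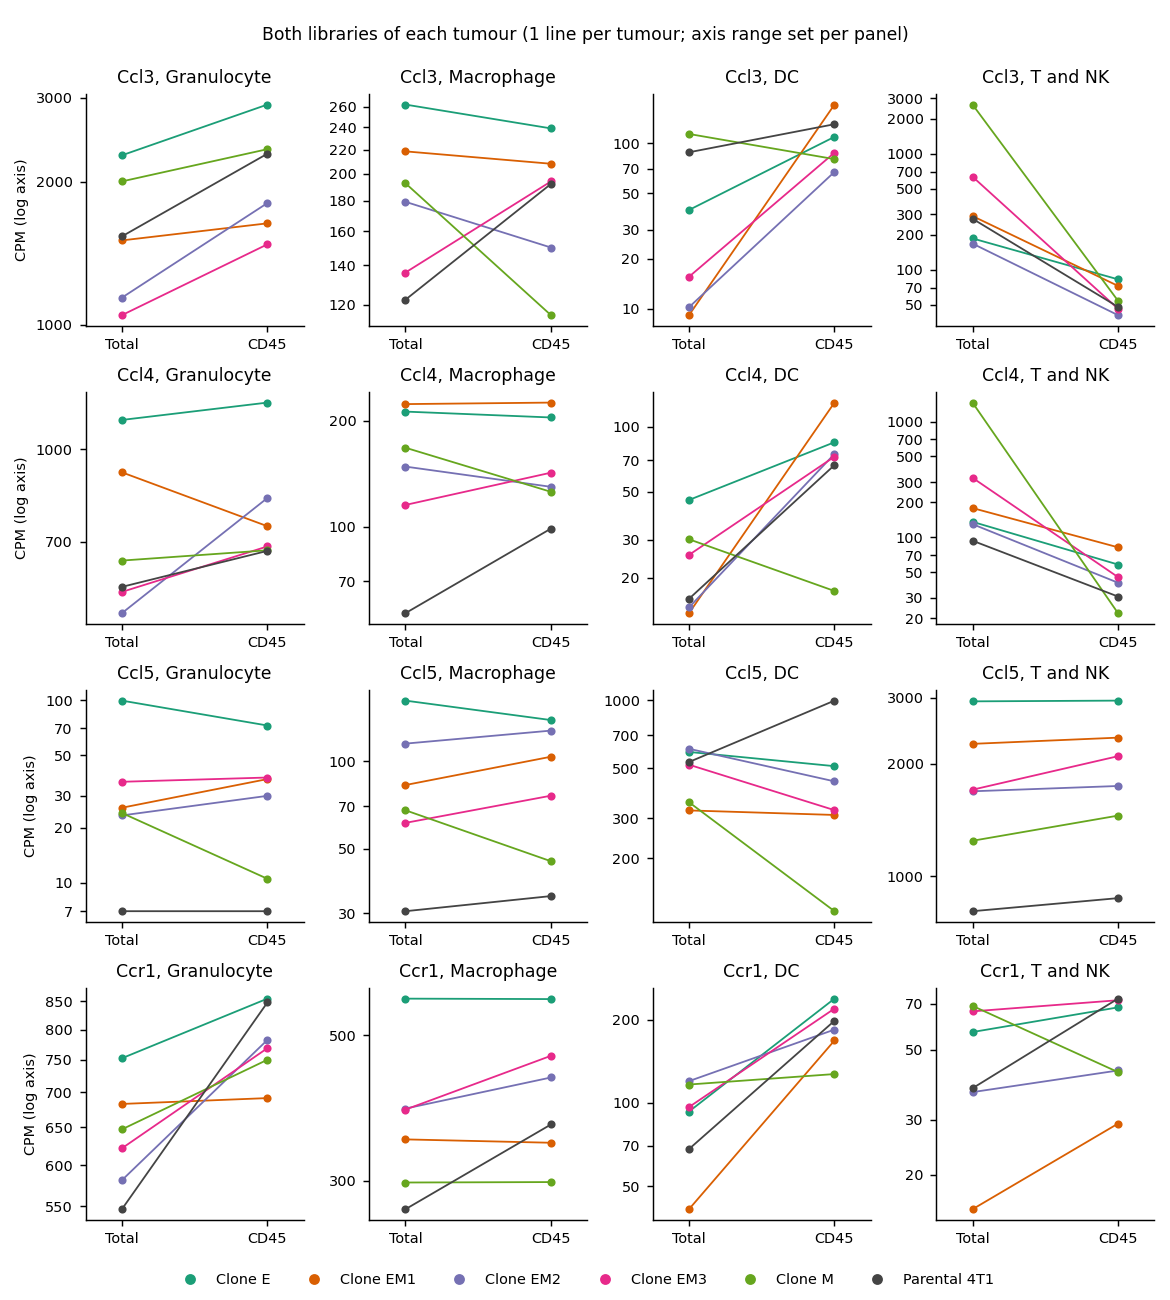
Level of each member in the Total and the CD45 library of each tumour, in CPM on a log axis whose range differs between panels; each line joins the 2 libraries of 1 tumour, with classes in columns and genes in rows. Ccl3 rises in granulocytes and falls in T and NK cells, hybrid cells left out, in all 6 tumours, while its macrophage lines cross.

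The lists were counted in the same comparison. Of the 12 NF-kB and immediate early genes, which share activating signals with Ccl3 and Ccl4, 9 rose in granulocytes, where 26.9% of all genes did, and none fell, with a median log2 change of 0.36 against 0.00 over all genes tested (edgeR, adjusted p under 0.05). Apoe and C1qa were higher in these granulocytes of the CD45 library in 6 of 6 tumours as well, and their part was not tested. Cxcl2 (0.64) and Il1b (0.63), a neutrophil chemokine and a cytokine, changed most. In macrophages, where 21.9% of all genes rose and 19% fell, 8 of the 12 rose and 1 fell (median 0.24, all genes 0.02), Fos (0.44) and Il1b (0.37) up and Egr1 (-0.52) down. In DC 2 rose, Fos (0.92) and Cxcl2 (0.65), where 6.6% of all genes did. In T and NK cells, where 11% of all genes rose and 13% fell, 3 rose and 5 fell, with Ier3 (-1.63) and Cxcl2 (-1.01) lowest and Zfp36 (0.31) and Junb (0.23) highest.

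Of the 4 ligands with shared receptors, 3 rose in granulocytes, where 26.9% of all genes did, led by Ccl9 (0.74) and Ccl6 (0.60), beside the higher Apoe and C1qa given above, and 1 in macrophages, Ccl9 (0.22), where 21.9% did. All 4 rose in DC, where 6.6% of all genes did, led by Ccl8 (3.12) and Ccl7 (2.60), beside the macrophage genes given above, and Ccl7 fell in T and NK cells (-0.70). The median log2 change of this list was 2.31 in DC, where that of all genes was -0.02. Of the 7 other CC receptors and decoys, 4 were tested in granulocytes and 3 rose (26.9% of all genes), led by Ccr7 (0.70) and Ccrl2 (0.68). Ccr7, which guides cells to lymph nodes, was at 18.3 to 49.9 CPM in granulocytes and at 1814 to 3728 CPM in DC of the CD45 libraries. In DC it fell (-0.56, SE 0.091, edgeR adjusted p = 0.0010), while Ccr2 rose (0.74), where 6.6% of all genes rose and 3.43% fell. Of the 5 tested in T and NK cells 2 rose, Ccr4 (0.55) and Ccr7 (0.51), where 11% of all genes did. None of the 4 receptors and decoys tested in macrophages passed, where 40.9% of all genes did. Of the 6 regulators of Ccl5, 4 were tested in granulocytes and all 4 rose, against 26.9% of all genes and beside the higher Apoe and C1qa. In T and NK cells, where 11% of all genes rose and 13% fell, 4 of 6 rose and Eomes, a factor of NK and effector CD8 cells, fell (-0.28).

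Of the 6 cytotoxic companions of Ccl5, 4 fell in T and NK cells (median -0.41, all genes 0.01), where 13% of all genes did, with Prf1 (-0.61) and Gzmb (-0.54) lowest, while Ccl5 itself did not pass. In macrophages, where 19% of all genes fell and 21.9% rose, 2 of the 4 tested fell, Gzmb (-2.65) and Gzma (-1.86), both from low levels. Gzmb had 1.77 to 22.1 CPM in macrophages of the Total libraries and 0.353 to 1.49 CPM in those of the CD45 libraries, and Gzma 0.721 to 7.27 and 0.201 to 1.18 CPM. The 3 markers listed for CD8 T cells, with the general T cell gene Cd3e among them, summed to 5.66 to 39.05 CPM there in Total. In CD45 they summed to 1.45 to 8.30 CPM. None of these markers was at 0, and their part was not tested. Of the 6 other CC ligands, 3 fell and 1 rose in macrophages, against the same shares, Ccl11 (-1.59) and Ccl12 (-0.31) lowest and Ccl24 (0.22) higher. Ccl11 had 0.940 to 1.38 CPM in macrophages of the Total and 0.227 to 0.604 CPM in those of the CD45 libraries. The 3 fibroblast markers summed to 29.9 to 125 and 0.557 to 2.32 CPM there, with at most 1 at 0 in a CD45 library, and their part was not tested. Ccl22 (-0.97), a product of mature DC, fell in DC, where 3.43% of all genes fell and 6.6% rose, and Ccl24 rose there (2.31). Dpp4, a protease that trims Ccl5, did not pass in any of the 3 classes in which it was tested.

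The order of the tumours was compared between both libraries, over 6 tumours, in a family of 8 correlations. In macrophages Pearson's r between the CD45 and the Total level was 0.91 for Ccl5 (exact permutation p = 0.0069, adjusted 0.047; Spearman's rho 0.94, adjusted exact permutation p 0.044). It was 0.87 for Ccr1 (exact permutation p = 0.028, adjusted 0.047; rho 0.77, exact p 0.10, adjusted 0.16) and 0.84 for Ccl4 (exact permutation p = 0.029, adjusted 0.047; rho 0.77, exact p 0.10, adjusted 0.16). For Ccl3 it was 0.16 (exact permutation p = 0.78, adjusted 0.79; rho 0.49, exact p 0.36), so that no relation between both libraries was shown for the Ccl3 order of macrophages. In granulocytes r was 0.88 for Ccl3 (exact permutation p = 0.026, adjusted 0.047; rho 0.94, exact p 0.017, adjusted 0.044), 0.88 for Ccl5 (exact permutation p = 0.015, adjusted 0.047; rho 0.94, exact p 0.017, adjusted 0.044), 0.70 for Ccl4 (exact permutation p = 0.079, adjusted 0.11; rho 0.26, exact p 0.66) and -0.14 for Ccr1 (exact permutation p = 0.79, adjusted 0.79; rho -0.14, exact p 0.80).

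Without the 2 tumours farthest from the median of the CD45 level, r over the 4 that were left stayed at 0.96 for Ccl5 in macrophages and 0.98 in granulocytes. It was lower for Ccr1 in macrophages, at 0.65 without Clones E and M, and for Ccl3 in granulocytes, at 0.62 without Clones E and EM3. With only 4 tumours of a narrower range, these values do not show whether the relation holds without those tumours. It was 0.77 for Ccl4 and 0.92 for Ccl3 in macrophages, and 0.93 for Ccl4 and -0.95 for Ccr1 in granulocytes. The tumours that share cell barcodes come in pairs, too few for a value within each.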

How the data were processed

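Single-cell RNA libraries of 6 tumours, 1 per group, were analysed: a Total and a CD45 library of each, grouped by the labels. The authors deposited raw UMI counts per gene and cell. The deposited cell tables give, per the file headers, each cell's class and its UMI and gene count, and its mitochondrial share both as a percent and as a fraction, neither of which entered a test. The submitters' processing notes name Cell Ranger and the mm10 build; versions, filters and any doublet removal are not given in the sources used here. Collagenase A and hyaluronidase freed the cells, per the labels' protocols, which lysed red cells and fixed the rest; the labels name both a fixed RNA kit and a 3′ kit, so the chemistry is not settled.

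Doublets were called with Scrublet in scanpy 1.11.5 (expected share 6%, 30 components, 1 score limit for all libraries, the median of 12 valleys, a rule set after the valleys were seen): 2523 of 115612 cells, 1.17% to 2.98% per library. Counts were summed over the cells of a class, with at least 20 cells except for T/Myeloid Hybrid2 in Clone M and the parental tumour (14 cells each) and for cells with basophil and mast cell genes (1 to 31 in a tumour), and scaled to CPM. Intervals are exact Poisson or Clopper-Pearson intervals at 95%. Shares of cells used cells thinned to 500 UMIs. Both libraries of a tumour were compared with edgeR 4.0.16 (TMM, filterByExpr, quasi-likelihood test, threshold 0.05), paired by tumour since both come from the same tumour. These p-values set the difference between both libraries against its spread over 6 tumours of 6 different groups, with 1 library of each kind per tumour. Alternatives were DESeq2 1.42.0, RLE scaling, no low-count filter, no tumour block, doublets kept, at least 650 genes per cell, other thinning or pseudocounts (10 or 1), and each tumour left out. The edgeR fits within a class were tested on simulated data.

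The 4 members are named in every class. Genes most like a member are the 5 with the highest r among genes with at least 50 CPM in some pair of class and CD45 library. A list gene past the threshold is named with its change only if it is among the 2 with the largest change in its direction. Not every list is given in every class. The members and lists were chosen with earlier results of these data known. Genes compared in cells with most Ccl3, levels of Ccl6, Ccl7, Ccl8, Ccl9 and Ccrl2, the basophil and mast cell genes with Il6 and Gata2, leaving out cells with at least 2 UMIs of them, adding hybrid cells to T and NK cells, and the limit of 650 genes for the difference between macrophages and granulocytes, were chosen after their values or the data had been seen.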

Additional observations from a re-analysis of the deposited data

Results flagged for a closer look

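The difference between the CD45 and the Total library of a tumour was itself different in macrophages and granulocytes for 2 of the 4 members. Of all 11514 genes tested, 42% passed this test, 24.8% above and 17.3% below 0. For Ccl3 the log2 change in macrophages minus that in granulocytes was -0.65 (edgeR adjusted p = 0.012), and for Ccr1 it was -0.39 (edgeR adjusted p = 0.018). The Ccl3 call was lost without Clone EM2 (-0.54, edgeR adjusted p = 0.067) or Clone M (-0.49, edgeR adjusted p = 0.050), and the Ccr1 call without Clone EM1 (edgeR adjusted p = 0.066), EM2 (0.065) or M (0.094). Both calls were also lost with cells of at least 650 genes, a setting added after seeing the data, at -0.13 for Ccl3 (edgeR adjusted p = 0.68) and -0.21 for Ccr1 (edgeR adjusted p = 0.22). Over 6 tumours left out in turn, the Ccl3 value lay between -0.74 and -0.49 and the Ccr1 value between -0.42 and -0.33. What sets the difference was not tested.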

How the results depend on the processing

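Of 586 values recomputed under an alternative, 508 kept their direction, side of the threshold or size, 34 moved, 16 gained and 20 lost the threshold and 8 changed direction. A level or share kept its size if it moved by less than its standard deviation over tumours, and a count of genes if it stayed within a set fold. By this wide limit the median Ccl3 of granulocytes, 2046 CPM in CD45 and 1519 CPM in Total (standard deviation 536 CPM), was kept. The 508 therefore include sizeable shifts. The direction of Ccl5 in granulocytes (-0.03) turned to 0.15 with DESeq2, 0.0096 with RLE scaling, 0.14 with no low-count filter and 0.014 with no replicate block. It lay between -0.13 and 0.16 with 1 tumour left out. Ccl3 in macrophages turned to -0.0065 in the exact sign-flip test, which used plain CPM. Ccl5 in T and NK cells turned to -0.0096 with hybrid cells added and doublets kept. The pairing by tumour comes from the labels. Without the replicate block the genes passing fell to 444 in DC, 1384 in macrophages and 763 in T and NK cells, and the calls of Ccl3 in DC (edgeR adjusted p = 0.13), Ccl4 in granulocytes (0.11) and Ccr1 in macrophages were lost. With no low-count filter the genes passing were 1331 in DC, 7238 in granulocytes, 7946 in macrophages and 4431 in T and NK cells; with doublets kept they were 1166 in DC. With 1 tumour left out they ranged from 439 to 884 in DC (lowest without Clone EM3; 468 without Clone E) and from 3211 to 4876 for the interaction (lowest without Clone M). The split of calls moved with the tool: macrophages had 2672 higher and 2323 lower with edgeR and 2945 and 4171 with DESeq2, T and NK cells 1115 and 1320 against 721 and 1422, and the interaction 2850 and 1990 against 2325 and 3110 with RLE scaling. The cause was not tested.

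The shares and the granulocyte levels moved with the limits on depth and genes per cell, and depth and the kind of cells kept cannot be told apart there. With at least 650 genes per cell the median level in granulocytes was 946 CPM for Ccl3 and 627 CPM for Ccr1, and granulocytes held 17.2% of Ccl3 and 14.7% of Ccl4 UMIs. With each cell weighing the same these levels were 2622 and 858 CPM, and Ccr1 had 634 CPM in the Total libraries. Median shares of cells with a UMI at 1000 UMIs per cell were 9.85% (Ccl3), 7.49% (Ccl4) and 32.2% (Ccr1) in macrophages and 26.8% (Ccl4) and 50.3% (Ccr1) in granulocytes. Not thinned they were 23.2%, 19.6% and 77.3% in macrophages and 46.4% (Ccl3), 24.7% and 49.7% in granulocytes. With no tumour left out, Ccl3 in macrophages passed the 2-fold range with a pseudocount of 1 (log2 range 1.05) or with doublets kept (1.03).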
